A study of Mus musculus with 4 samples.

Results

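The 41 genes described here drive DNA replication and mitosis, and their transcript levels are often read as a measure of proliferation. They were picked by gene symbol, with no threshold on any value, although earlier results of these data were known, as 18 genes used in S phase and 23 genes used in mitosis, out of 20805 genes into which the mm9 exon annotation of the study was condensed. All 41 had reads in all 4 libraries. RNA came from whole frozen tissue of C57BL/6 mice of 9 to 10 weeks of age, with jejunum as the small intestine sample and distal colon as the colon sample. For the first pair of libraries, small intestine cDNA fragmented and colon cDNA fragmented, polyadenylated RNA was copied from an oligo-dT primer by template switching (the SMART method), amplified and then fragmented. The second pair, small intestine rRNA-depleted and colon rRNA-depleted, was made with the SOLiD Whole Transcriptome Analysis Kit, which fragments RNA directly and keeps the strand. The labels call this second pair depleted of ribosomal RNA, whereas the study's methods describe an enrichment for polyadenylated RNA, but of libraries with longer reads and more of them than those analysed here. Those methods may thus not describe this pair, and its RNA input is uncertain. Each tissue and protocol has 1 library, and no label ties a library to a mouse, although the study speaks of both tissues as taken from the same individuals. No difference below therefore has a replicate check, and every interval covers counting error only.

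The intestinal epithelium is renewed from crypts, in which stem cells and transit-amplifying cells divide before their progeny stop cycling and move out. In S phase the Mcm helicase, loaded on origins by Cdc6 and Cdt1 and activated with the GINS complex, opens DNA, while the clamp Pcna and the ligase Lig1 serve DNA synthesis and Rrm1, Rrm2, Tyms, Tk1 and Dut supply nucleotides. In mitosis cyclins and the kinases Plk1, Aurka and Aurkb start division, kinesins and their partners build the spindle, centromere proteins hold the chromosomes, and Cdc20 and Ube2c serve the ubiquitin ligase that ends it. Many S phase promoters are bound by E2F factors, and many mitotic promoters carry a CHR element that is read together with CCAAT boxes.

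The cDNA fragmented libraries held 22484041 (small intestine) and 24798934 (colon) uniquely placed reads, and the rRNA-depleted libraries held 2035386 and 3478387. Of these the 41 genes took 40091, 38493, 2969 and 4266 reads in that order, or 0.178%, 0.155%, 0.146% and 0.123%. Counting error was thus far smaller in the cDNA fragmented pair. A single gene, Lars2, took 13.7% of the reads of small intestine rRNA-depleted and 5.35% of those of colon rRNA-depleted. Levels are given as RPKM, reads per kilobase of exon and 1000000 uniquely placed reads. The small intestine label was checked with Olfm4, a stem cell marker of the small intestine in mice, which stood at 396 and 227 RPKM in the small intestine libraries and at 0.295 and 2.10 in those of colon.

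S phase and mitotic genes are shown first by their promoters, whose letters differ in frequency between the groups and make no use of the reads. RefSeq promoter windows (GRCm38.p6, 250 bases before to 50 after the start) were matched for 34 of the 41 genes. The CHR letters TTTGAA or TTCGAA, on either strand, were in the windows of 15 of 19 mitotic and 2 of 15 S phase genes, and in 21.7% of the 27025 genes with a window. CCAAT was present on either strand in 16 of 19 mitotic and 9 of 15 S phase genes against 41.1% of all genes. An E2F word (TTTGGCGC, TTTCCCGC, TTTGCCGC or TTTCGCGC, either strand; these words share letters and may overlap each other) was in 8 of 15 S phase and 0 of 19 mitotic genes, against 2.60% of all genes. A match describes letters in a window and is no sign of binding. Windows of 30 bases around the motif, in capitals, are shown for 3 S phase genes with an E2F word and for 4 mitotic genes with a CHR, chosen among those whose levels are described below.
Mcm3 (chr1:20820263-20820292, minus strand): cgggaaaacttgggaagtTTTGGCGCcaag
Mcm6 (chr1:128359734-128359763, minus strand): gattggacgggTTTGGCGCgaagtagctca
Cdt1 (chr8:122568035-122568064, plus strand): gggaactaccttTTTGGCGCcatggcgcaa
Ccnb2 (chr9:70421533-70421562, minus strand): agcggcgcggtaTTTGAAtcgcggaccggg
Plk1 (chr7:122159453-122159482, plus strand): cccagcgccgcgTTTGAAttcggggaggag
Cenpf (chr1:189688067-189688096, minus strand): ggcggcgggcagTTTGAAtcgctcgtgctg
Kif23 (chr9:61946780-61946809, minus strand): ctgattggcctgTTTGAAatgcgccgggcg

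Among the helicase and loading factors, levels ran from 1.28 RPKM for Cdc6 in colon rRNA-depleted to 31.2 RPKM for Mcm7 in colon cDNA fragmented. Mcm7, a helicase subunit, stood at 30.7 RPKM in small intestine and 31.2 in colon of the cDNA fragmented pair and at 14.8 and 20.9 in the rRNA-depleted pair. A gene was called when its tissue ratio, colon over small intestine, was at least 1.5 in either direction, its 95% interval left out 1 and the pair held at least 20 reads of it. For Mcm7 the ratio was 1.01 (0.948 to 1.08) in the first pair and 1.41 (1.07 to 1.89) in the second, with exact binomial intervals in parentheses here and below. Mcm7 was thus level between the tissues in the first pair, and its ratio in the second, though the highest of an S phase gene there, was not called. Mcm2 was measured at 5.08 RPKM in small intestine and 5.36 in colon of the cDNA fragmented pair and at 9.62 and 12.9 in the rRNA-depleted pair. Its ratios of 1.06 (0.919 to 1.21) and 1.34 (0.996 to 1.82) both have intervals that include 1. Mcm6 had 19.1 (small intestine) and 12.97 RPKM (colon) with fragmented cDNA, 12.9 and 12.1 RPKM with rRNA depletion. This subunit was among the lowest S phase ratios with fragmented cDNA, 0.678 (0.622 to 0.738), and was level with rRNA depletion, 0.939 (0.700 to 1.27). Mcm3 gave 13.2 (small intestine) and 12.7 RPKM (colon) with fragmented cDNA, 8.85 and 3.88 RPKM with rRNA depletion. Here the order of the protocols was the other way round, with a ratio of 0.958 (0.872 to 1.05) in the first pair and a ratio of 0.439 (0.282 to 0.678) in the second. The other subunits, Mcm4 and Mcm5, kept within 0.796 and 1.12 in their 4 ratios.

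Cdc6, which recruits the helicase to origins, was low at 3.77 RPKM in small intestine and 2.66 in colon of the cDNA fragmented pair and at 1.57 and 1.28 in the rRNA-depleted pair. The ratio was 0.704 (0.605 to 0.819) with fragmented cDNA and 0.819 (0.403 to 1.71) with rRNA depletion, the latter on 15 and 21 reads. For its partner Cdt1 the values were 2.50 (small intestine) and 2.26 RPKM (colon) with fragmented cDNA, 4.48 and 1.71 RPKM with rRNA depletion. Cdt1 had the same number of reads, 123, in both cDNA fragmented libraries, and a ratio of 0.907 (0.700 to 1.17). The second pair gave 0.380 (0.174 to 0.803) on 20 reads in small intestine and 13 in colon. Gins1, a GINS subunit, had 6.89 (small intestine) and 5.55 RPKM (colon) with fragmented cDNA, 2.13 and 2.49 RPKM with rRNA depletion. With 5 and 10 reads in the second pair it was the only gene of the 41 below the minimum of 20 reads in a pair, and a tissue difference was not detectable there, at a ratio of 1.17 (0.364 to 4.36). Gins2, another subunit, read 5.49 (small intestine) and 9.99 RPKM (colon) with fragmented cDNA, 13.7 and 7.20 RPKM with rRNA depletion. Its ratio was 1.82 (1.63 to 2.04) in the first pair, the highest of the 18 S phase genes, and 0.525 (0.394 to 0.698) in the second, but most reads of the second pair lie on the other strand, as described further on. The first-pair call of Gins2 was lost under median-of-ratios scaling, over the last 1000 exonic bases and at a ratio of at least 2.

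In RPKM Pcna, the sliding clamp of the DNA polymerases, was the highest of the 41 genes in every library. It stood at 88.3 RPKM in small intestine and 92.2 in colon of the cDNA fragmented pair and at 82.7 and 68.0 in the rRNA-depleted pair. With rRNA depletion 42 of 212 Pcna reads in small intestine and 50 of 298 in colon began at 1 position. The tissue ratios of Pcna, 1.04 (0.989 to 1.10) and 0.823 (0.687 to 0.986), lie on either side of 1. Lig1, which joins Okazaki fragments, stood at 5.18 RPKM in small intestine and 8.48 in colon of the cDNA fragmented pair and at 8.03 and 3.48 in the rRNA-depleted pair. Colon was higher in the first pair, at 1.64 (1.44 to 1.86), and lower in the second, at 0.433 (0.281 to 0.665), so that no direction can be given for this gene from both pairs. The first call was lost under median-of-ratios scaling and at a ratio of at least 2. The second was lost over the last 1000 exonic bases, and at a minimum of 100 reads the gene had too few reads in that pair to be tested. Unlike Gins2, Lig1 shares no exon with another annotated gene, and 54 of 54 and 40 of 40 reads of the second pair lie on its own strand.

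Of the genes for nucleotide supply, thymidine kinase Tk1 gave 48.1 (small intestine) and 58.8 RPKM (colon) with fragmented cDNA, 14.0 and 19.7 RPKM with rRNA depletion. Its ratios of 1.22 (1.14 to 1.31) and 1.41 (0.961 to 2.10) were above 1 in both pairs but below 1.5, and the second interval includes 1. Over reads on its own strand alone, an alternative added after seeing the data, the second ratio of Tk1 was 1.63 (1.09 to 2.51), which was called higher. Ribonucleotide reductase has a large subunit, Rrm1, and a small one, Rrm2. Rrm1 was found at 24.2 RPKM in small intestine and 15.8 in colon of the cDNA fragmented pair and at 18.4 and 22.2 in the rRNA-depleted pair. Its ratio of 0.651 (0.610 to 0.696) was the lowest of the S phase genes in the first pair, whereas the second gave 1.21 (0.989 to 1.47). The first-pair call of Rrm1 was lost in start points, over the last 1000 exonic bases, with reads thinned and without the segment that differed most. Here and below, thinning was 1 random draw of reads down to the depth of the second pair, and calls may differ in another draw. It was also lost when scaled to epithelium markers, at a ratio of at least 2, and with the 10 genes with the most reads left out of the divisor. Rrm2 stood at 43.7 RPKM in small intestine and 38.4 in colon of the cDNA fragmented pair and at 8.34 and 7.65 in the rRNA-depleted pair, and its ratios were 0.878 (0.826 to 0.933) and 0.917 (0.597 to 1.43). The level of Rrm2 thus differed more between protocols than between tissues. Dut, which removes dUTP, had 5.05 (small intestine) and 7.82 RPKM (colon) with fragmented cDNA, 4.11 and 5.15 RPKM with rRNA depletion. Dut was higher in colon at 1.55 (1.34 to 1.80) with fragmented cDNA and gave 1.25 (0.732 to 2.22) with rRNA depletion. Tyms, thymidylate synthase, gave ratios of 1.52 (1.36 to 1.70) and 1.15 (0.695 to 1.94). The first-pair calls of Dut and Tyms were both lost at no more than 1 color mismatch, in start points, under median-of-ratios scaling, with reads thinned, and without the segment of the gene that differed most, and that of Tyms also over the last 1000 exonic bases. Uhrf1, which keeps DNA methylation through replication, gave 1.02 (0.902 to 1.16) and 0.805 (0.604 to 1.08).

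**Figure D1:**
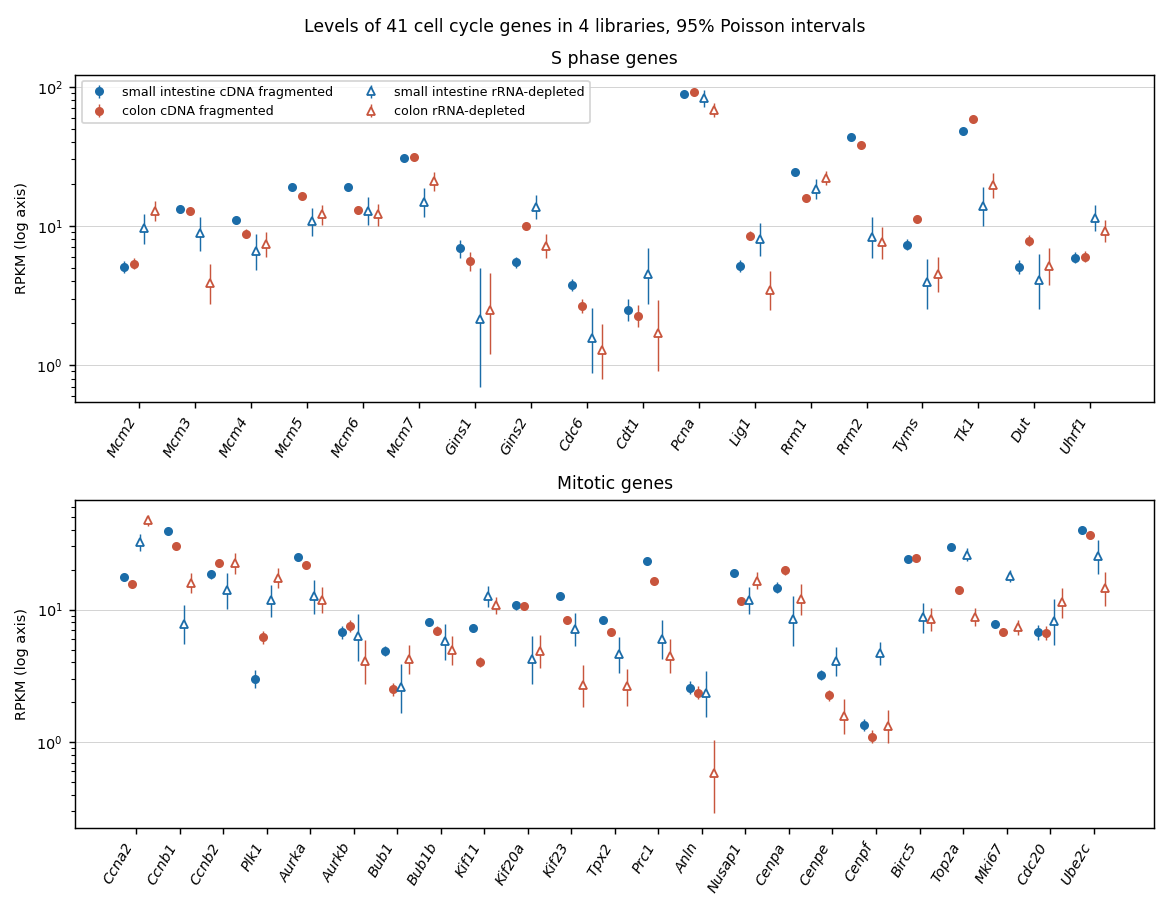
Level of each of the 41 genes in each library, in RPKM on a log axis, with S phase genes above and mitotic genes below and bars for 95% exact Poisson intervals. Pcna lies between 68.0 and 92.2 RPKM in all 4 libraries, and Anln in colon rRNA-depleted is the lowest value at 0.583 RPKM.

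Of the mitotic cyclins, Ccnb1 was measured at 39.4 RPKM in small intestine and 30.2 in colon of the cDNA fragmented pair and at 7.85 and 16.0 in the rRNA-depleted pair. It had the highest mitotic ratio of the second pair, 2.04 (1.41 to 3.03), and a ratio below 1 in the first, 0.766 (0.718 to 0.817). The second was called, but that call was lost in start points and over the last 1000 exonic bases. In the first pair Ccnb1 was called lower over those bases and under median-of-ratios scaling. Ccnb2 stood at 18.6 RPKM in small intestine and 22.6 in colon of the cDNA fragmented pair and at 14.0 and 22.4 in the rRNA-depleted pair. The ratio was 1.21 (1.10 to 1.35) in the first pair and 1.596 (1.12 to 2.31) in the second, and the second was called. That call was lost at no more than 1 color mismatch, in start points, under median-of-ratios and epithelium scaling, at a ratio of at least 2, with Lars2 or the 10 genes with the most reads left out of the divisor, and without the segment that differed most. Ccna2, the cyclin of S phase and early mitosis, was the only mitotic gene with over 30 RPKM in both rRNA-depleted libraries, at 32.3 and 47.3, and its ratios were 0.893 (0.820 to 0.971) and 1.46 (1.23 to 1.74). Over reads on its own strand the second ratio of Ccna2 was 1.55 (1.30 to 1.86), which was called higher. Plk1, a kinase of mitotic entry, had 3.01 (small intestine) and 6.19 RPKM (colon) with fragmented cDNA, 11.8 and 17.4 RPKM with rRNA depletion. Its ratios of 2.06 (1.69 to 2.51) and 1.47 (1.06 to 2.06) were both above 1, and the first was called. That call was lost with reads thinned, and also without segment 6 of 10 of the gene, where its ratio was 1.46 (1.17 to 1.84), and the second ratio over its own strand was 1.20 (0.826 to 1.76). The checkpoint kinase Bub1 read 4.86 (small intestine) and 2.50 RPKM (colon) with fragmented cDNA, 2.61 and 4.24 RPKM with rRNA depletion. Bub1 was lower in colon in the first pair, 0.515 (0.441 to 0.599), and not in the second, 1.63 (0.997 to 2.75). Its first-pair call was lost when scaled to epithelium markers and at a ratio of at least 2.

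Top2a, the topoisomerase that untangles chromosomes, showed the lowest ratio of the first pair and was lower in colon in both pairs. Its levels were 29.8 (small intestine) and 14.0 RPKM (colon) with fragmented cDNA, 26.1 and 8.82 RPKM with rRNA depletion. Colon stood at 0.470 (0.444 to 0.497) and 0.338 (0.276 to 0.412) of small intestine. The spindle motor Kif23, which works at the midzone in cytokinesis, was the only other gene called lower in both pairs. In the first pair Kif23 lost that call in start points, when thinned, and with the 10 genes with the most reads left out of the divisor. As did Top2a, it also lost it there in the last 1000 bases and when scaled to epithelium markers. In the second pair Kif23, with 50 and 32 reads, had too few reads to be tested at a minimum of 100. Kif23 was measured at 12.7 RPKM in small intestine and 8.35 in colon of the cDNA fragmented pair and at 7.18 and 2.69 in the rRNA-depleted pair, with ratios of 0.656 (0.595 to 0.723) and 0.374 (0.233 to 0.595). Kif11, the motor that separates the spindle poles, had 7.29 (small intestine) and 4.05 RPKM (colon) with fragmented cDNA, 12.6 and 10.9 RPKM with rRNA depletion. Its ratio was 0.555 (0.495 to 0.623) in the first pair and 0.859 (0.680 to 1.09) in the second. The first was called lower, but that call was lost over the last 1000 exonic bases, when scaled to epithelium markers and at a ratio of at least 2. Anln, a scaffold of the contractile ring, had 2.58 (small intestine) and 2.37 RPKM (colon) with fragmented cDNA, 2.36 and 0.583 RPKM with rRNA depletion. Its second ratio, 0.248 (0.110 to 0.518), rests on 26 and 11 reads, and the first was 0.918 (0.783 to 1.08). Mki67, the antigen of the Ki-67 stain for cycling cells, stood at 7.74 RPKM in small intestine and 6.73 in colon of the cDNA fragmented pair and at 17.9 and 7.33 in the rRNA-depleted pair. Colon was close to small intestine with fragmented cDNA, 0.870 (0.813 to 0.931), and called lower with rRNA depletion, 0.409 (0.347 to 0.481).

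Cenpf, a large kinetochore protein, had the lowest level of the 41 genes in both cDNA fragmented libraries. It stood at 1.34 RPKM in small intestine and 1.10 in colon of the cDNA fragmented pair and at 4.68 and 1.32 in the rRNA-depleted pair. Colon was called lower in the second pair, with ratios of 0.818 (0.698 to 0.958) and 0.282 (0.198 to 0.397). Cenpa, the histone H3 variant of centromeres, was at 14.6 RPKM in small intestine and 19.8 in colon of the cDNA fragmented pair and at 8.45 and 12.0 in the rRNA-depleted pair, and its ratios of 1.35 (1.20 to 1.53) and 1.42 (0.863 to 2.43) stayed below 1.5. Ube2c, the conjugating enzyme of the anaphase promoting complex, was the highest mitotic gene of both cDNA fragmented libraries, next to Ccnb1. It read 39.99 (small intestine) and 36.5 RPKM (colon) with fragmented cDNA, 25.3 and 14.5 RPKM with rRNA depletion. Its ratio was 0.913 (0.829 to 1.01) in the first pair and 0.573 (0.375 to 0.875) in the second, where it was called lower. Cenpe, a kinetochore motor, gave 0.702 (0.618 to 0.797) and 0.387 (0.257 to 0.578), and Tpx2, which activates Aurka on the spindle, gave 0.810 (0.732 to 0.896) and 0.571 (0.360 to 0.905). Both were called lower in the second pair only. Nusap1, which bundles spindle microtubules, was called lower in the first pair at 0.619 (0.568 to 0.674) and gave 1.42 (1.07 to 1.88) in the second. Its call was lost in start points, when scaled to epithelium markers, at a ratio of at least 2 and without the segment that differed most. The kinases Aurka, Aurkb and Bub1b, the survivin gene Birc5, the activator Cdc20, the motor Kif20a and the midzone bundler Prc1 were not called in either pair, with ratios from 0.655 for Aurkb to 1.37 for Cdc20, both in the rRNA-depleted pair.

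Across the 41 genes, scaled to all uniquely placed reads, most tissue ratios were not called, and calls of lower in colon outnumbered those of higher clearly in the second pair and by 1 gene in the first. In the first pair the order turned when libraries were scaled to epithelium markers, and also, at 5 higher and 4 lower, with the 10 genes with the most reads left out of the divisor, and the directions were tied in start points, in the last 1000 bases and at a ratio of at least 2. In the cDNA fragmented pair 5 genes were called higher in colon (Tyms, Dut, Plk1, Gins2 and Lig1) and 6 lower (Kif11, Top2a, Nusap1, Bub1, Rrm1 and Kif23), while 30 were not called. Of the 14171 genes with at least 20 reads in that pair, 39.9% were called higher and 15.1% lower, or 55.0% in either direction. In the rRNA-depleted pair 2 of 40 genes were called higher (Ccnb1 and Ccnb2) and 12 lower (Ube2c, Cdt1, Top2a, Cenpf, Tpx2, Mki67, Gins2, Kif23, Anln, Mcm3, Cenpe and Lig1), against 37.5% called higher and 17.4% lower of 11931 genes, or 55.0% in either direction. The share of the tested genes called was below that of all genes in both pairs, and in the second pair calls ran mostly to lower levels in colon. Under the study's own rule, at least 3-fold with 1 RPKM added to the divisor, 0 of the genes were called in either pair, against 6.87% and 12.3% of all genes.

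The median log2 ratio of the genes was -0.16 in the first pair and -0.11 in the second, while that of all tested genes was 0.40 in both. Relative to all genes the medians were thus -0.56 and -0.51. In the first pair 35 of 41 genes lay below the median of all genes, and in the second 29 of 40. Scaling by the median of ratios over all genes gave 1 higher and 15 lower in the first pair and 1 higher and 16 lower in the second, against 27.0% and 23.4% of all genes in the first and 25.04% and 25.1% in the second. Medians relative to all genes do not depend on such a scaling. Scaling by the summed reads of 12 epithelium markers moved every log2 ratio of the first pair up by the same amount, with 31 genes higher and 0 lower in colon and a median log2 ratio of 0.85. All genes then stood at 79.1% higher and 5.07% lower, so that the share of the 41 called higher was near that of all genes. Krt20, a keratin of mature intestinal epithelium, gave 7525 of the 11137 RPKM of these markers in small intestine cDNA fragmented and 2503 of 5987 in colon cDNA fragmented. In whole tissue, fewer cycling cells and less of these RNAs per cell cannot be told apart.

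**Figure D2:**
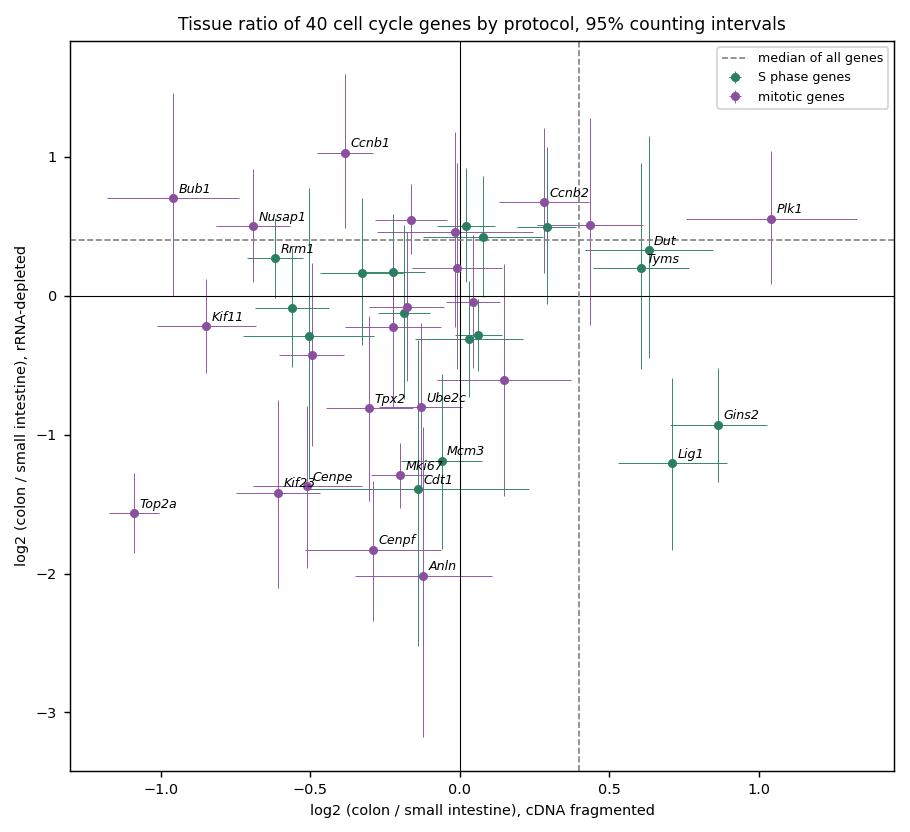
Log2 ratio of colon over small intestine for 40 of the genes (without Gins1, which had too few reads), with the cDNA fragmented pair on the x axis and the rRNA-depleted pair on the y axis. Bars are 95% counting intervals, dashed lines mark the medians of all genes, and genes called in a pair are named. Top2a and Kif23 lie low on both axes, and Gins2 and Lig1 lie on opposite sides of 0.

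The pairs share no library, so the genes can be set side by side in both. Both ratios were below 1 for 17 genes and above 1 for 8, and 6 and 10 genes were on different sides. Spearman's rho between the log2 ratios of the pairs was 0.16 over the 41 genes and 0.52 over 11628 genes, given as a description since genes of a library share its depth and preparation. The spread of the log2 ratios, as the width of the central quartiles, was 0.45 in the first pair, against 1.27 for all genes and 1.11 for the 8239 genes in the same range of reads. In the second pair it was 1.27 against 1.44 and 1.41.

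S phase and mitotic genes were next compared with each other. In the first pair 4 S phase genes were called higher and 1 lower in colon, with a median log2 ratio of -0.021, and 1 mitotic gene was called higher and 5 lower, with a median of -0.20. In the second pair 0 S phase genes were higher and 4 lower (median -0.090), against 2 and 8 mitotic genes (median -0.22). All genes stood at 39.9% higher and 15.1% lower in the first pair and at 37.5% and 17.4% in the second. The S phase median exceeded the mitotic one by 0.18 and 0.13. Both differences were smaller than the spread over genes. The width of the central quartiles was 0.53 (S phase) and 0.49 (mitotic) in the first pair and 0.58 and 1.56 in the second. All 5 genes with over 5000 exonic bases, described further on, are mitotic, and the part of length or GC in this difference was not tested. Summed levels of the 18 S phase genes over those of the 23 mitotic genes came to 1.03 (1.01 to 1.05) in small intestine cDNA fragmented and 1.21 (1.19 to 1.24) in colon cDNA fragmented. With rRNA depletion they were 0.961 (0.882 to 1.05) in small intestine and 0.938 (0.876 to 1.004) in colon. The ratio of sums of these 41 genes was therefore higher in colon in the first pair, and the tissues had overlapping intervals in the second. With medians in place of sums the ratio was 0.853 in small intestine and 1.26 in colon of the first pair and 1.12 and 0.884 in the second, where colon was thus the lower. The wider lists of replication and mitotic genes, described further on, went the other way in the first pair. Their median log2 ratios were -0.18 (replication) and 0.18 (mitosis) there, and 0.081 and 0.047 in the second pair. Their sums were 612 RPKM (replication) and 534 RPKM (mitosis) in small intestine cDNA fragmented and 604 and 661 RPKM in colon cDNA fragmented, so that in this pair a higher balance in colon holds for the 41 genes and not for these lists. With rRNA depletion the sums were 288 (replication) and 398 RPKM (mitosis) in small intestine and 328 and 424 RPKM in colon. There the balance of the wider lists was slightly higher in colon, and that of the 41 genes was not. In start points (reads with the same start counted once), in the last 1000 bases and without shared exons the sum ratio of the first pair was likewise higher in colon. The sums are led by few genes, as Pcna alone gave 88.3 of the 345 RPKM of the S phase sum in small intestine cDNA fragmented and Top2a went from 29.8 to 14.0 RPKM in the mitotic sum of that pair.

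Within a tissue, more genes were called between the protocols than between the tissues within a protocol. In small intestine 19 of the 41 genes were higher and 10 lower with fragmented cDNA than with rRNA depletion, against 25.7% and 41.4% of all genes (67.2% in either direction), and the median log2 ratio was 0.57 against -0.35. In colon 20 were higher and 7 lower, against 23.9% and 46.2% (70.1% in either direction), with medians of 0.58 and -0.53. The 41 genes thus lay higher with fragmented cDNA relative to all genes in both tissues, by 0.92 and 1.10 on the log2 scale. Over the last 1000 exonic bases the difference was 0.33 in small intestine and 0.83 in colon. In small intestine 18 of 38 tested genes were then higher and 3 lower, against 30.5% and 24.1% of all genes. Under median-of-ratios scaling 29 of the 41 genes were higher and 4 lower in small intestine, against 37.6% and 30.2% of all genes. Rrm2 was 5.24 (3.79 to 7.46) times as high with fragmented cDNA in small intestine and 5.02 (3.87 to 6.63) times in colon. Plk1 went the other way at 0.254 (0.185 to 0.355) and 0.356 (0.291 to 0.439), and so did Cenpf in small intestine, at 0.287 (0.230 to 0.360). The RNA captured and the steps of library preparation changed together with the protocol and cannot be told apart, and whether the mice did is not given in the labels.

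The tissue ratio went along with base composition in the first pair and with length in both. Over the 41 genes the log2 ratio of colon over small intestine had a Spearman's rho with the GC share of exonic bases of 0.65 with fragmented cDNA and of 0.066 with rRNA depletion. For all genes rho was 0.37 and 0.020. Among the genes called lower in colon in the first pair were some of low GC, such as Bub1 with 40.6% GC, Kif11 with 42.2% and Top2a with 43.3%. Plk1 with 56.0%, Lig1 with 54.1% and Gins2 with 53.1% were called higher there. The relation had exceptions at both ends, as Pcna with 43.8% had a ratio of 1.04, and the genes of highest GC, Cdt1 with 58.7% and Cdc20 with 56.8%, had ratios of 0.907 and 0.988. With exonic length, rho was -0.46 and -0.47 for the 41 genes and -0.13 and -0.15 for all genes. The relation with length was seen in the mitotic genes, at -0.59 and -0.61, and was weak in S phase genes, at -0.15 and -0.18. The 5 genes with over 5000 exonic bases, Anln, Cenpe, Cenpf, Mki67 and Top2a, had a median log2 ratio of -1.56 in the second pair, and all 5 were called lower there. The 35 shorter ones had -0.046, and all genes over and up to that length had 0.053 and 0.47. Of all tested genes of any length 17.4% were called lower in that pair, and the share among long genes was not computed. Over the last 1000 exonic bases Mki67 and Top2a were still called lower there. Anln, Cenpe and Cenpf were not, but only 32 genes held the minimum of 20 reads in those bases. The last of 10 equal segments held 3 and 0 reads of Anln, 9 and 6 of Cenpe and 5 and 1 of Cenpf (small intestine, colon). The missing calls of these 3 genes thus do not show that their difference was absent there. In the first pair the same long genes had a median of -0.29 and the 36 shorter ones -0.14, against 0.19 and 0.44 for all genes, and Top2a alone of the long ones was called. These are correlations across genes, which are not replicates, and the part of GC or length in any tissue difference was not tested.

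**Figure D3:**
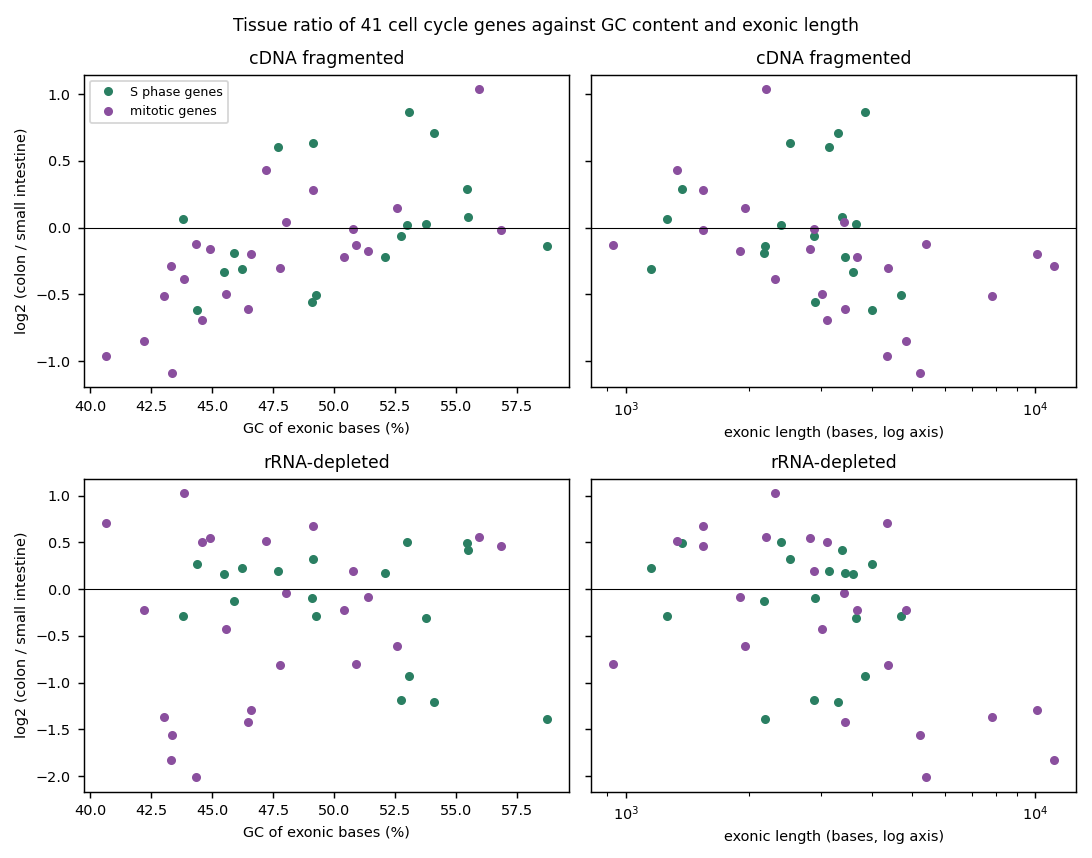
Log2 ratio of colon over small intestine of the 41 genes against GC content of the exonic bases in % (left) and exonic length in bases on a log axis (right), for the cDNA fragmented pair (top) and the rRNA-depleted pair (bottom), 1 point per gene. The points rise with GC in the top left panel, where Spearman's rho is 0.65, and show no such course below it, at 0.066.

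Strand and position of the reads set a limit on some of these genes. In the rRNA-depleted pair, where strand is kept, 94.4% and 96.0% of the reads of the 41 genes lay on the strand of the gene, against 98.4% and 98.5% over all genes. Gins2 was the gene most on the other strand, with 14 of 107 reads on its strand in small intestine and 22 of 96 in colon. Its exons on chromosome 8 (123102369 to 123112975, minus strand, mm9) share 2922 of 3835 bases with Gse1 on the plus strand. Gse1 itself was at 11.7 and 4.98 RPKM in the rRNA-depleted libraries of small intestine and colon and at 0.0661 and 0.190 in the cDNA fragmented ones. Counting only reads on its own strand, an alternative added after seeing the data, gave Gins2 a ratio of 0.920 (0.450 to 1.94) in the second pair, so that the call of lower in colon there was lost. In the first pair, where strand is not kept, 400 of 473 reads in small intestine and 775 of 950 in colon lay in the first 3 of 10 equal segments of the exonic length, and the ratio without blocks shared with another gene was 0.81 on the log2 scale.

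Plk1 drew a large part of its difference from 1 stretch. In colon cDNA fragmented 128 of 338 reads lay in segment 6 of the 10 equal segments of its exonic length, against 19 of 149 in small intestine cDNA fragmented. Without that segment the ratio was 1.46 (1.17 to 1.84), and the gene was no longer called. Plk1 also had 43 of 133 reads on the other strand in colon rRNA-depleted and 9 of 53 in small intestine, and its ratio over reads on its own strand was 1.20 (0.826 to 1.76). As an alternative chosen after seeing the data, the segment that differed most between the tissues was left out of each of the 41 genes. Tyms, Dut and Plk1 then lost the call of higher and Rrm1, Kif23 and Nusap1 that of lower in the first pair, leaving 2 and 3. The segment was picked by its difference, which by itself favours a loss of calls, or a gain where that segment ran against the rest of the gene. The step was not run over all genes, so no share of all genes stands beside these counts. In the second pair Ccnb2 lost its call at 1.49 (1.03 to 2.21) and Tpx2 its call at 0.638 (0.387 to 1.06). Bub1 was then called higher there, at 2.47 (1.36 to 4.78) on 14 reads in small intestine and 59 in colon, against its call of lower in the first pair. The segment left out of Bub1 held 9 and 5 reads, so that leaving it out by itself raised the ratio, and no opposite direction can be read from this call. Tyms has 85.7% of its 35-base words, the length of a read, only once in the exon reference, so that part of its reads cannot be placed uniquely, and 89.7% of those of Mki67, whose repeats resemble each other, are unique. The other 39 genes had at least 93.3%.

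Along the genes, reads upstream of the exonic midpoint made up a median of 40.2% and 39.8% of a gene's reads in small intestine and colon with fragmented cDNA, against 33.9% and 33.0% for all genes with at least 20 reads. With rRNA depletion the medians were 48.4% and 50.5%, against 46.8% and 48.3%. Top2a had 38.0% of its reads upstream of the midpoint in small intestine cDNA fragmented and 26.8% in colon cDNA fragmented, and its ratio over the last 1000 exonic bases alone was -0.54 on the log2 scale, against -1.09 over the whole gene, which ended its call. In the second pair the last 1000 bases gave -1.83 against -1.56. For Mki67 the shares were 12.4% and 9.16% in the cDNA fragmented libraries and 48.4% and 31.5% in the rRNA-depleted ones. Dut, Gins2, Tyms and Cdc6 had 94.7%, 92.6%, 85.4% and 82.0% of their reads upstream of the midpoint in small intestine cDNA fragmented. The RPKM of these genes is thus averaged over long stretches with few reads, and their last 1000 exonic bases hold few of their reads.

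**Figure D4:**
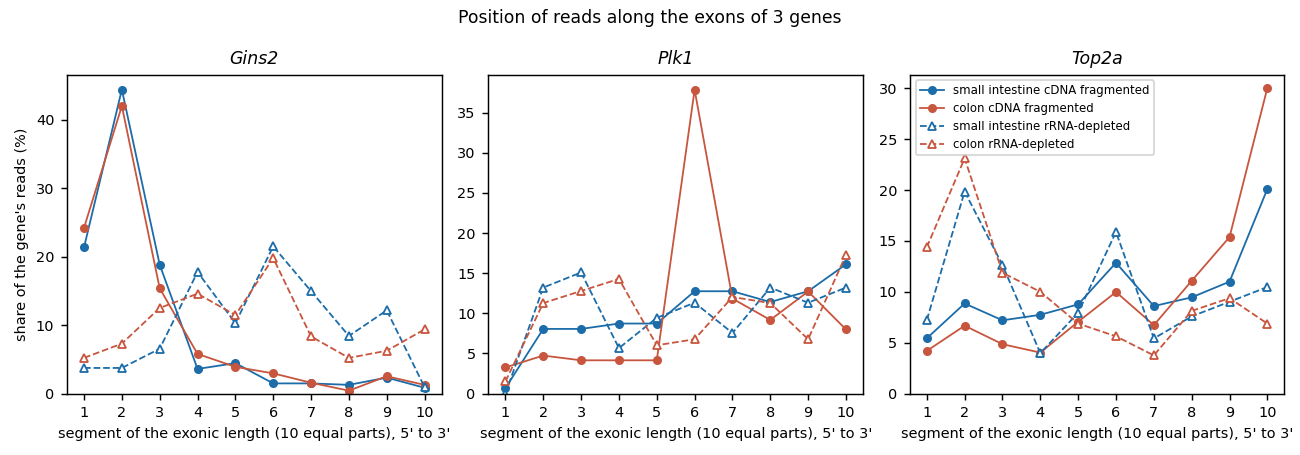
Share of a gene's reads, in %, in each of 10 equal segments of its exonic length from the 5′ to the 3′ end, for Gins2, Plk1 and Top2a in each library. Segment 6 of Plk1 stands out in colon cDNA fragmented with 128 of 338 reads, and the upstream segments of Gins2 hold most reads with fragmented cDNA but not with rRNA depletion.

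Wider lists of the same pathways were laid beside the 41 genes. For comparison, 39.9% of all genes were called higher and 15.1% lower in the first pair, and 37.5% and 17.4% in the second. Of 48 other replication genes listed, 4 of 47 tested genes were called higher and 9 lower in the first pair, and 8 and 8 of 44 in the second, with median log2 ratios of -0.18 and 0.081. The most abundant with fragmented cDNA, Rpa3 of the single-strand binding complex, stood at 71.8 and 85.1 RPKM (small intestine, colon) with fragmented cDNA and 8.48 and 10.4 with rRNA depletion. Orc1, of the origin recognition complex, had the highest ratio of the first pair, with 1.80 and 4.003 RPKM (small intestine, colon) with fragmented cDNA and 0.489 and 3.05 with rRNA depletion, and was called higher in both, on 3 and 32 reads in the second, where the ratio was 6.24 (1.95 to 31.9). Of 55 other mitotic genes, 10 of 54 tested genes were called higher and 7 lower in the first pair, and 8 and 10 of 48 in the second, with median log2 ratios of 0.18 and 0.047. Cks2, a partner of cyclin-dependent kinases, led them with fragmented cDNA, at 72.0 and 123 RPKM (small intestine, colon) with fragmented cDNA and 12.0 and 26.9 with rRNA depletion, and was higher in colon in both pairs. Smc2, a condensin subunit, had the lowest ratio of the first pair, with 11.4 and 4.83 RPKM (small intestine, colon) with fragmented cDNA and 7.94 and 6.54 with rRNA depletion, and the kinesin Kif18b the highest, with 0.280 and 0.846 RPKM (small intestine, colon) with fragmented cDNA and 3.53 and 4.998 with rRNA depletion. For 27 G1 regulators and inhibitors, 6 of 25 tested genes were called higher and 5 lower in the first pair, and 5 and 9 of 25 in the second, with median log2 ratios of 0.054 and -0.095. Cdkn1a, an inhibitor of cyclin-dependent kinases, was the most abundant at 117 and 117 RPKM (small intestine, colon) with fragmented cDNA and 57.5 and 69.1 with rRNA depletion. Ccne2, a cyclin of S phase entry, was lower in colon in both pairs, with 7.68 and 2.85 RPKM (small intestine, colon) with fragmented cDNA and 10.6 and 5.77 with rRNA depletion, and Cdk6 had the highest ratio of the first pair, with 0.576 and 2.20 RPKM (small intestine, colon) with fragmented cDNA and 7.36 and 9.54 with rRNA depletion. All 3 lists lay below the median of all genes in both pairs, with differences of -0.58, -0.21 and -0.35 in the first and of -0.32, -0.36 and -0.50 in the second.

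Markers of the cell types of whole tissue also differed in level between the libraries. Of all genes, 39.9% were called higher in colon and 15.1% lower in the first pair, and 37.5% and 17.4% in the second. Smooth muscle markers summed to 295 and 952 RPKM (small intestine, colon) with fragmented cDNA and 269 and 1948 with rRNA depletion (calls in colon: 8 higher and 0 lower of 11, then 11 and 0 of 11), with no marker at 0. Adipocyte markers summed to 75.1 and 363 RPKM (small intestine, colon) with fragmented cDNA and 31.1 and 183 with rRNA depletion (5 higher and 0 lower of 5, then 3 and 0 of 3). Stroma and endothelium markers came to 251 and 281 RPKM (small intestine, colon) with fragmented cDNA and 73.7 and 249 with rRNA depletion (3 higher and 0 lower of 10, then 5 and 0 of 10). Relative to all genes their median log2 ratio was -0.24 in the first pair and 0.36 in the second. T cell markers summed to 108 and 30.1 RPKM (small intestine, colon) with fragmented cDNA and 29.3 and 29.4 with rRNA depletion (0 higher and 10 lower of 12, then 1 and 1 of 4), and among them Cd3g and Cd8b1 were at 0 in colon rRNA-depleted and Cd2 in small intestine rRNA-depleted. B and plasma cell markers gave 3415 and 384 RPKM (small intestine, colon) with fragmented cDNA and 377 and 399 with rRNA depletion (0 higher and 7 lower of 12, then 1 and 0 of 8), most of it Igj of plasma cells, at 3335 and 342 RPKM (small intestine, colon) with fragmented cDNA and 347 and 359 with rRNA depletion. Pax5 was at 0 in both cDNA fragmented libraries and Tnfrsf17 in small intestine rRNA-depleted. Lymphocytes can cycle too, and their markers were higher in small intestine in the first pair and not in the second. Epithelium markers summed to 11137 and 5987 RPKM (small intestine, colon) with fragmented cDNA and 5387 and 7182 with rRNA depletion (6 higher and 4 lower of 12, then 5 and 4 of 12). Crypt base markers summed to 469.9 and 86.2 RPKM (small intestine, colon) with fragmented cDNA and 304 and 117 with rRNA depletion (5 higher and 3 lower of 12, then 5 and 2 of 12), where Olfm4 carries the difference and Ephb2, a receptor of the lower crypt, went the other way with 0.931 and 5.06 RPKM (small intestine, colon) with fragmented cDNA and 5.45 and 16.8 with rRNA depletion. The part of these cell types in the levels of the 41 genes was not tested.

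**Figure D5:**
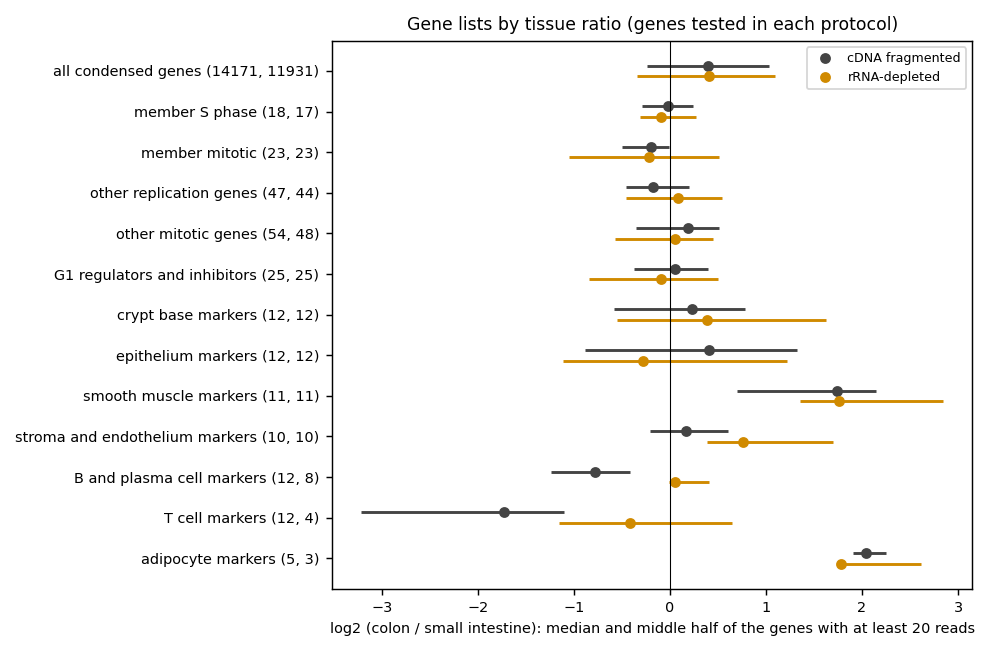
Median (point) and span from the lower to the upper quartile (line) of the log2 ratio of colon over small intestine in each gene list, for the cDNA fragmented pair (dark) and the rRNA-depleted pair (orange), with the number of genes tested in each. The S phase and mitotic genes have medians between -0.22 and -0.021, below that of all genes under this scaling to all uniquely placed reads, while smooth muscle markers lie at 1.74 and 1.76.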

How the data were processed

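Libraries of mouse intestine were analysed, small intestine and colon under a cDNA fragmented and an rRNA-depleted protocol. The authors matched SOLiD reads of 35 colors, allowing up to 3 color mismatches, to RefSeq exons and exon junctions of mm9, and deposited tables of placed reads, each with its position and mismatch number. From these positions, uniquely placed reads were counted on the merged exon blocks of 20805 genes with Python 3.11.15, pandas 2.3.3 and SciPy 1.17.1 and scaled to RPKM. Reads with several placements had been removed, so repeated exonic sequence is undercounted. The 41 genes and all other lists were chosen with earlier results of these data known. Ratios carry 95% exact conditional binomial intervals, levels exact Poisson intervals, and neither holds more than counting error, as reads amplified from 1 molecule are counted apart. With 1 library in each group no test was run. Genes named with all values were, in each sublist, the 3 highest, the 3 largest and 3 smallest ratios of each pair, those with under 20 reads in a pair and those called in opposite directions. Other genes were named to account for the whole list or because a result turned on them, after their values were seen. Scaling, mismatch limit, start points, 3′ bases, shared exons and thresholds were varied. Promoter windows came from RefSeq (GRCm38.p6) and no coordinates were carried between builds. The values of 1 gene of the other lists are not reported here. The script was tested on simulated data.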

Additional observations from a re-analysis of the deposited data

Results flagged for a closer look

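Gins2 and Lig1 were called in opposite directions by the protocols, and the difference between the protocols was not tested, since each tissue and protocol has 1 library. For Gins2 the log2 ratio of colon over small intestine was 0.86 with fragmented cDNA and -0.93 with rRNA depletion, where 93 of 107 and 74 of 96 reads lay on the other strand. For Lig1 it was 0.71 and -1.21, with no read of the rRNA-depleted pair on the other strand, and both calls remained when the segment of the gene that differed most was left out, at ratios of 1.56 and 0.517. Other settings ended them. The first-pair calls of both genes were lost under median-of-ratios scaling and at a ratio of at least 2, and that of Gins2 also over the last 1000 exonic bases. The second-pair call of Lig1 was lost over the last 1000 bases, and at a minimum of 100 reads the gene had too few reads to be tested.

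Reads placed across exon junctions were not used for the levels. The 41 genes had 422 of them in small intestine cDNA fragmented, 337 in colon cDNA fragmented, 26 in small intestine rRNA-depleted and 34 in colon rRNA-depleted, above the limit of 3 reads that a count of 0 allows.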

How the results depend on the processing

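Of 183 values recomputed under an alternative for the counts, medians and S phase to mitotic ratios, 126 stayed within the spread allowed. For single genes, called or not, 942 ratios were recomputed. A change of sign was counted only where the gene had been called in the main setting, and 6 such changes were found. Sign changes of uncalled genes were not counted, so 6 is no share of the 942. With libraries scaled to epithelium markers, 31 genes were called higher and 0 lower in the cDNA fragmented pair at a median log2 ratio of 0.85, against 79.1% and 5.07% of all genes, and 1 higher and 12 lower in the rRNA-depleted pair, against 29.03% and 22.2%. This scaling adds 1 amount to every log2 ratio of a pair, which by itself changed the sign, in the first, of Kif11 (0.16), Nusap1 (0.32), Bub1 (0.053), Rrm1 (0.39) and Kif23 (0.40, all log2). Scaling by median of ratios gave 1 higher and 15 lower (median -0.49) in the first pair, 1 higher and 16 lower in the second, and between protocols 29 higher and 4 lower in small intestine (median 1.18), with 37.6% higher and 30.2% lower of all genes, and in colon 30 higher and 4 lower (median 1.20), with 36.1% higher and 33.2% lower.

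Over the last 1000 exonic bases the first pair had 3 higher and 3 lower (39.6% higher and 15.4% lower of all genes), a median of -0.027 and -0.44 relative to all genes, the second 3 higher and 6 lower of 32 (33.4% higher and 16.6% lower), and Tpx2 turned to 0.23 on the log2 scale. Between protocols these bases gave 18 higher and 3 lower of 38 (30.5% higher and 24.1% lower of all genes) and a median of 0.33 relative to all genes in small intestine, and medians of 0.93 and, relative to all genes, 0.83 in colon. Counting start points gave 3 higher, 3 lower (33.6% higher and 12.7% lower of all genes) and a median of -0.43 relative to all genes in the first pair and 0 higher and 12 lower in the second (25.9% higher and 15.3% lower). Between protocols start points gave 27 higher and 4 lower at a median of 1.06 in small intestine (31.9% higher and 28.6% lower of all genes) and 28 higher and 3 lower at 1.03 in colon (31.7% higher and 30.8% lower). Reads with at most 1 color mismatch gave 3 higher and 6 lower in the first pair (38.4% higher and 16.0% lower of all genes) and 5 higher and 10 lower of 39 in the second (36.9% higher and 16.6% lower). A ratio of at least 2 left 1 higher and 1 lower in the first pair (25.7% higher and 9.52% lower of all genes) and 1 higher and 9 lower in the second (26.5% higher and 11.9% lower), and the study's 3-fold rule left 0 in either direction in both. Thinning the first pair to the depth of the second, in 1 random draw, gave 2 higher and 7 lower (32.0% higher and 14.99% lower of all genes). In that draw Bub1b, Mcm6 and Prc1 were newly called lower and Kif23 and Rrm1 lost. The draw was not repeated, so the genes that gained or lost a call may differ in another. A minimum of 100 reads left 2 higher and 5 lower of 23 tested genes in the second pair (40.5% higher and 19.2% lower). Of the alternatives chosen after seeing the data, reads on the strand of the gene gave 4 higher and 11 lower in the second pair (38.4% higher and 16.9% lower of all genes), a divisor without Lars2 1 and 12 (32.4% higher and 20.04% lower), and one without the 10 genes with the most reads 1 and 12 (31.6% higher and 20.4% lower), and in the first pair 5 higher and 4 lower (42.4% higher and 14.0% lower). Without the segment of a gene that differed most, the first pair had 2 higher and 3 lower, and the second 2 higher (Ccnb2 lost, Bub1 gained) and 11 lower (Tpx2 lost). The choice of segment favours a loss of calls, or a gain where that segment ran against the rest of the gene, as in Bub1. No share of all genes was computed for this step.

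The S phase to mitotic ratio of sums became 0.924, 1.04, 0.753 and 0.793 with start points (small intestine and colon, cDNA fragmented then rRNA-depleted) and 0.844, 0.923, 0.859 and 0.826 over the last 1000 bases. Without shared exon blocks it was 1.15 and 1.41 in the cDNA fragmented libraries, and over the 37 genes with at least 20 reads in every library 0.9996 in small intestine cDNA fragmented. The causes were not tested. With 1 library in each tissue and protocol no replicate could be left out and the spread between mice is unknown. No paired analysis was possible because the labels give no replicate numbers, and tissue with protocol as a block, which would leave 1 residual degree of freedom, was not fitted.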
